A study of Mus musculus with 9 samples.

Results

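The comparison described here set b.End3 cells that had received photodynamic treatment at a light dose of 20 J/cm2 (Ep2, n = 3) against untreated b.End3 cells (Ctrl, n = 3), over every gene with a level that could be compared. A gene was kept when it had at least 1 FPKM (fragments per kilobase of gene, scaled to the mapped fragments of the library) in at least 3 of these 6 libraries, which left 11492 of the 54532 genes in the deposited table. All libraries came from b.End3, an established mouse brain endothelial line. Its labels give the strain as C57BL/6 and the cells as brain microvessel endothelium, while the growth protocol calls them rat cells. In Ep2 a cell monolayer was given 300 µg/mL porfimer sodium for 90 min and then 635 nm laser light at 100 mW/cm2. Ctrl is labelled only as untreated, with no arm of drug alone or light alone among the samples, so the effects of the drug, of the light and of both together cannot be told apart. The time between light and lysis is not given in the sources used here. A further group of 3 libraries, Ep1, had the same drug and a light dose of 10 J/cm2, and was used to share the estimate of spread and to place Ep2 beside a lower dose.

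Porfimer sodium is a mixture of porphyrins that enters cells and their membranes. Red light excites it, and the excited porphyrin passes energy to oxygen, which yields singlet oxygen and other oxidants that damage lipids and proteins close to where they form. Brain endothelial cells line the capillaries that make up the blood-brain barrier, which they keep closed with tight junctions and selective transporters. Cells that meet oxidants are known to use several transcriptional programmes: NRF2 switches on antioxidant genes, the unfolded protein response expands the chaperones of the endoplasmic reticulum (ER), ATF4 acts in the integrated stress response, and HIF acts when oxygen or its sensing falls. Genes for DNA replication and mitosis are switched on once per division by E2F and by the MuvB complex, and are kept off in cells that do not divide.

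The 6 libraries held 16240688 to 19509225 fragments over genes, with 18289776 to 19509225 in Ctrl and 16240688 to 18575984 in Ep2. Log2 levels correlated at Pearson's r of 0.991 to 0.994 among the Ctrl libraries, 0.987 to 0.992 among the Ep2 libraries and 0.968 to 0.974 between the groups, across genes. Ep2 replicate 1 stood apart most: for 869 genes it lay over 0.3 log2 units outside both other Ep2 libraries, against 277 to 496 genes for each of the other 5 libraries. Some results that rest on it are given with and without it, and others, such as Hmox1, Ero1l and Ccng2, only with their values per library. Transcripts of the mitochondrial genome took 1.90 to 1.99% of fragments in Ctrl and 2.04 to 2.49% in Ep2. Across genes, the median log2 fold change (Ep2 minus Ctrl) went from 0.09 in the lowest of 4 equal bins of transcript GC content to -0.15 in the highest, and from -0.09 in the bin of shortest genes to 0.06 in that of the longest. The part of base composition and length in the gene groups below was not tested beyond the corrected fit named with them.

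The defining markers went against the endothelial label in part. Of 24 endothelial marker genes 4 passed the filter, 12 stayed under 0.1 FPKM in all 6 libraries, and the transcription factors Erg, Sox17 and Tal1 and the surface proteins Emcn and Robo4 were listed at 0 in all 6. The deposited table also lists genes that most cells use at or near 0, such as the integrin subunit Itgb1 (at most 0.0396 FPKM) and the mitochondrial ribosomal protein Mrpl53 (0 in all 6), so a listed 0 may come from the counting and does not show absence. Kdr, the main VEGF receptor, reached at most 0.0537 FPKM, and Cdh5, the endothelial cadherin, had 0.524 to 0.903 FPKM. Flt1, the decoy VEGF receptor, was measured well and rose, with 6.66, 7.04 and 6.99 FPKM in Ctrl and 11.7, 10.4 and 10.6 FPKM in Ep2 (log2 fold change 0.59, SE 0.068, adjusted p = 8.92e-05). Plvap, which forms the diaphragms of endothelial pores, had 0.679, 1.03 and 0.786 FPKM in Ctrl and 1.48, 1.83 and 1.18 FPKM in Ep2 (log2 fold change 0.44, SE 0.12, adjusted p = 0.0108). Plvap passed the filter only through its Ep2 libraries, which favours a rise, so its call is weak support for one. Summed over the 24 genes, the endothelial markers made up 12.6 to 13.4 FPKM in Ctrl and 16.4 to 18.2 FPKM in Ep2.

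Krt8, Krt18 and Krt19, keratins of simple epithelium, were far higher than any endothelial marker. Epithelial markers, nearly all through these keratins, summed to 1030 to 1080 FPKM in Ctrl and 1160 to 1380 FPKM in Ep2. The rest of the list was mostly low. Of 16 epithelial marker genes 6 passed the filter and 6 stayed under 0.1 FPKM in all 6 libraries. The keratins Krt7 and Krt5 and the splicing factor Esrp1 were listed at 0 in all 6. Of the 6 that passed the filter 4 rose, Epcam among them. Krt19 had 170, 178 and 172 FPKM in Ctrl and 324, 270.3 and 255 FPKM in Ep2 (log2 fold change 0.69, SE 0.12, adjusted p = 0.00121). Krt18 had 230.5, 243 and 237 FPKM in Ctrl and 332, 311 and 279 FPKM in Ep2 (log2 fold change 0.37, SE 0.062, adjusted p = 0.000828). Its partner Krt8 overlapped between the groups, with 628, 658 and 635 FPKM in Ctrl and 714, 649 and 619.5 FPKM in Ep2. Epcam, a surface marker of epithelium, had 0.763, 0.777 and 0.898 FPKM in Ctrl and 2.03, 1.68 and 1.59 FPKM in Ep2 (log2 fold change 0.61, SE 0.11, adjusted p = 0.00112). Because Epcam passed the filter only through Ep2, a rise was favoured in advance and its call is weak support for one. Cdh1, the epithelial cadherin, reached at most 0.103 FPKM. Of 14 macrophage markers Cd68 alone passed the filter, and C1qa, C1qb, C1qc, Tyrobp and Itgam were at 0 in all 6 libraries, while the list's sum, nearly all Cd68, went from 23.7 to 25.3 FPKM in Ctrl to 77 to 92.5 FPKM in Ep2. The 3 pericyte, smooth muscle and fibroblast markers tested did not pass the test. All 14 genes of that list summed to 44.8 to 47 FPKM in Ctrl and 44.5 to 53.9 FPKM in Ep2. Tubb3, the 1 astrocyte and neuron marker tested, did not pass it either. It had 1.39, 1.89 and 1.38 FPKM in Ctrl and 1.91, 0.658 and 0.806 FPKM in Ep2. All 10 genes of its list summed to 2.41 to 2.92 FPKM in Ctrl and 2.47 to 3.07 FPKM in Ep2. The part of these marker shifts in the gene groups below was not tested. In bulk RNA, fewer cells of a type and less RNA per cell cannot be told apart, and FPKM gives a share of all fragments, not an amount per cell.

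**Figure D1:**
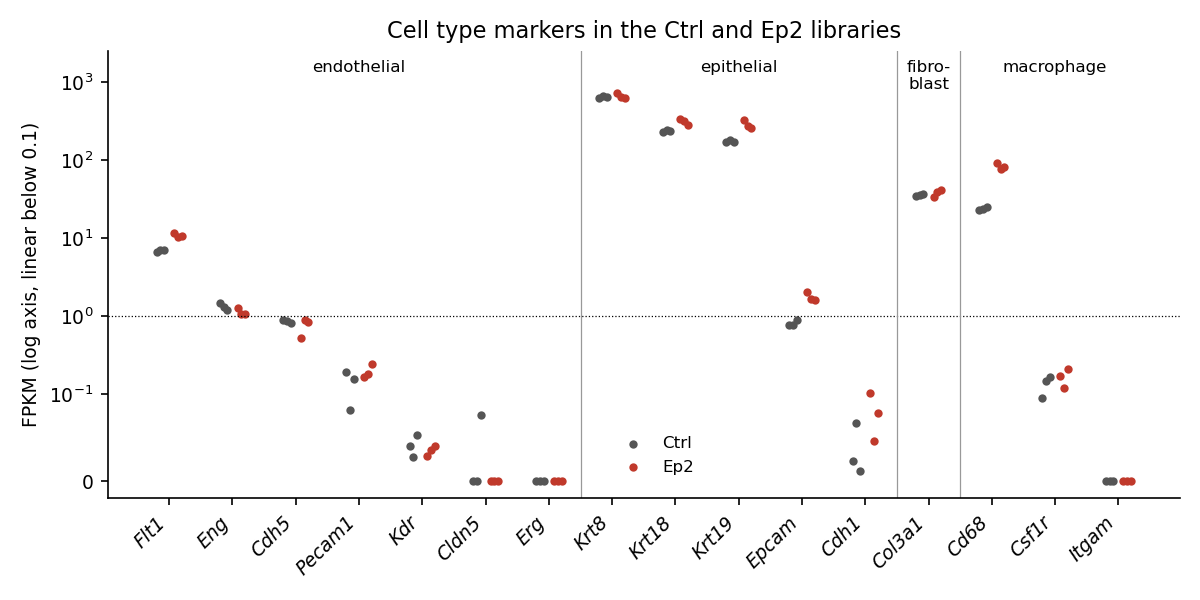
Levels in FPKM (log axis, linear below 0.1) of 16 cell type markers in the 3 Ctrl and 3 Ep2 libraries, 1 point a library. The keratins Krt8, Krt18 and Krt19 lie between 170 and 714 FPKM in every library, and most endothelial markers lie below 1 FPKM.

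Most measured genes moved at least a little. In limma's moderated test on log2(FPKM + 1), adjusted by the method of Benjamini and Hochberg over all 11492 genes, 6226 genes (54.2%) passed an adjusted p of 0.05, 2798 higher in Ep2 (24.3%) and 3428 lower (29.8%). Below, rose and fell mean that a gene passed this test. Counts in the gene lists below are to be read beside these shares of all genes. With a log2 fold change beyond 0.6 in either direction as well, 1055 genes (9.18%) remained, 376 higher (3.27%) and 679 lower (5.91%). The study used the same thresholds for differential expression, but with a test that it does not name. It reports a much larger number of such genes for this dose, so the counts are not alike. Of the genes that rose, 2734 had all 3 Ep2 libraries above all 3 Ctrl libraries, and of those that fell 3353 had all 3 below. Among genes that did not pass the test, 413 also had all 3 above and 447 all 3 below. The calls come from these same libraries, so the separation is no further support for them. The share of higher calls among these 1055 was 35.6%, but it became 47.2% (482 higher, 539 lower) when libraries were centred on the median gene and 49.8% (465 and 469) after a correction for length and GC content, so the excess of falls depends on the scale. With voom weights and TMM scaling on the fragments recovered from the FPKM values it was 47.7% (779 and 853).

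The largest rise among well-expressed protein-coding genes was in Cd68, a lysosomal membrane protein, with 23.1, 23.4 and 24.9 FPKM in Ctrl and 91.9, 76.6 and 82.3 FPKM in Ep2 (log2 fold change 1.77, SE 0.088, adjusted p = 1.82e-06). Next were Atf3 (1.60), a stress-induced transcription factor, Il11 (1.58), a cytokine of the IL-6 family, Hmox1 (1.52), which breaks down heme, and Slc7a11 (1.44), which imports cystine. Selenbp1 (1.35), Ero1l (1.33), Ndrg1 (1.26), Bnip3 (1.26), Cnn2 (1.25), Kdelr3 (1.17) and Nr4a1 (1.17) completed the 12 largest rises, all values being log2 fold changes. The largest fall in the same set was in Ankle1, a nuclease, with 9.02, 9.63 and 9.03 FPKM in Ctrl and 1.52, 1.17 and 1.46 FPKM in Ep2 (log2 fold change -2.10, SE 0.067, adjusted p = 7.67e-07). Dnph1 (-1.73), which clears a modified deoxynucleotide, Chtf18 (-1.64), which loads the replication clamp, and Recql4 (-1.53), a helicase of origin firing, came next. Smpdl3b (-1.43), Gm10282 (-1.39), Sapcd2 (-1.38), Pimreg (-1.37), Pold2 (-1.36), Tcf19 (-1.34), Tk1 (-1.32) and Gtse1 (-1.31) completed the 12 largest falls.

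By the number of FPKM gained or lost the leaders were other genes. Ftl1, the ferritin light chain, gained most, with 627, 635 and 603 FPKM in Ctrl and 1120, 1069 and 966 FPKM in Ep2 (log2 fold change 0.75, SE 0.077, adjusted p = 4.58e-05). P4hb, the protein disulfide isomerase, had 558, 565 and 579 FPKM in Ctrl and 959, 836 and 832 FPKM in Ep2 (log2 fold change 0.62, SE 0.069, adjusted p = 6.93e-05). The mitochondrial subunit gene mt-Nd6, the ER chaperone Hspa5 and the tropomyosin Tpm4 followed among the gains. Tuba1b, an alpha-tubulin, lost most, with 755, 779.6 and 700.2 FPKM in Ctrl and 393, 422 and 411 FPKM in Ep2 (log2 fold change -0.86, SE 0.056, adjusted p = 5.19e-06). It was followed by the ribosomal protein gene Rps29, the beta-tubulin Tubb5, Hint1 and Nhp2, a protein of the box H/ACA particles that modify ribosomal RNA. Ftl1, Rps29 and the tubulins have near-identical copies elsewhere in the genome, between which the counting could split fragments, so their levels are uncertain.

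**Figure D2:**
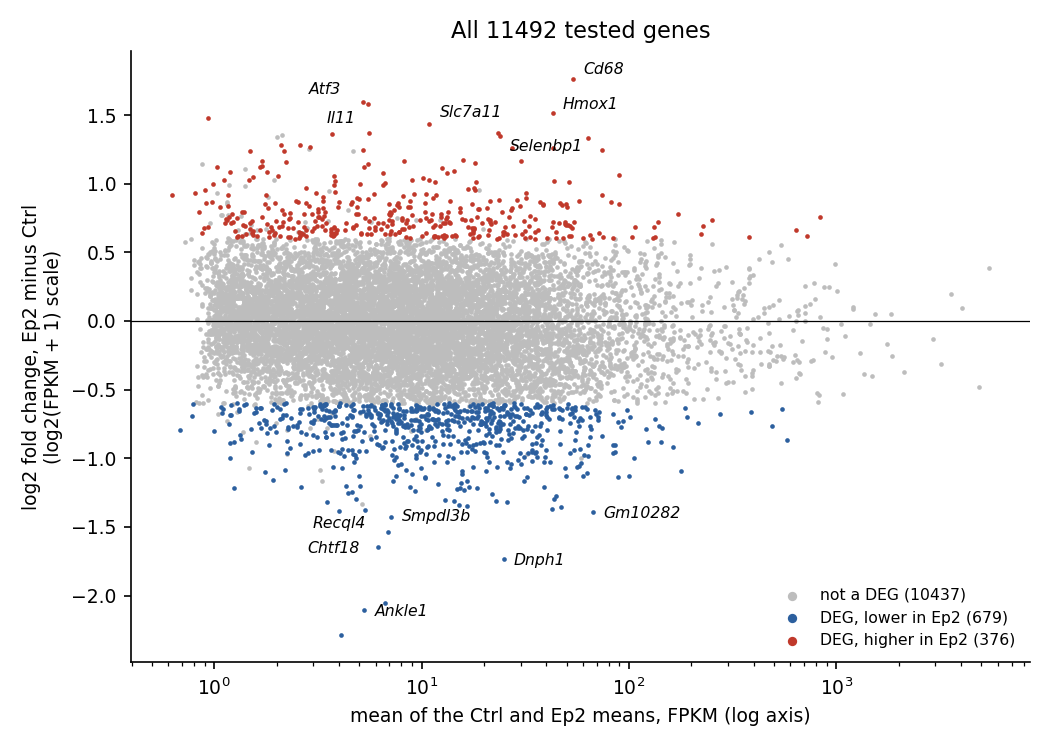
Log2 fold change (Ep2 minus Ctrl) of the 11492 genes tested against the mean of the Ctrl and Ep2 means in FPKM (log axis), with genes past the test and beyond 0.6 in colour and the largest rises and falls named. The falls (679) outnumber the rises (376) on this scale.

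Genes of cell division fell almost throughout. Of 115 tested genes in 5 mitosis lists 107 fell (93.0%, against 29.8% of all genes), 4 rose, and 63 fell beyond 0.6 (54.8%, against 5.91%). Their median log2 fold change was -0.64, beside -0.03 for all genes. Of 24 mitotic kinases and cyclins 23 fell, with a median of -0.72 that lay between -0.74 and -0.67 over the settings that changed the scale. Melk, a kinase of dividing cells, had 17.2, 16.8 and 17.4 FPKM in Ctrl and 7.36, 7.07 and 6.46 FPKM in Ep2 (log2 fold change -1.19, SE 0.06, adjusted p = 1.82e-06). Ccna2, the cyclin of S phase and mitotic entry, had 45.97, 47.2 and 45.1 FPKM in Ctrl and 22.1, 22.4 and 22.2 FPKM in Ep2 (log2 fold change -1.02, SE 0.054, adjusted p = 2.3e-06). In both genes all 3 Ep2 libraries lay near 1 level, far under all Ctrl libraries. Bub1b, the spindle checkpoint kinase BubR1, had 69.3, 66.4 and 65.9 FPKM in Ctrl and 29.9, 32.7 and 31.6 FPKM in Ep2 (log2 fold change -1.07, SE 0.06, adjusted p = 2.89e-06).

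The other mitosis lists went the same way. Of 30 mitotic kinesins and spindle proteins 29 fell (median -0.66), among them Psrc1, which guides microtubule growth, with 6.398, 6.08 and 6.18 FPKM in Ctrl and 1.72, 1.91 and 1.68 FPKM in Ep2 (log2 fold change -1.38, SE 0.066, adjusted p = 1.72e-06). Kif20a, a motor of cytokinesis, had 45.9, 43.9 and 44.4 FPKM in Ctrl and 24.1, 23.6 and 22.97 FPKM in Ep2 (log2 fold change -0.90, SE 0.044, adjusted p = 1.82e-06). All 10 condensin and chromosome genes tested fell (median -0.69), including Top2a, the topoisomerase that untangles sister DNA, with 93.6, 94.9 and 98.8 FPKM in Ctrl and 55.9, 50.1 and 53.5 FPKM in Ep2 (log2 fold change -0.84, SE 0.049, adjusted p = 2.95e-06). Of 35 kinetochore and centromere genes 32 fell (median -0.49), with Cenpe, the kinetochore motor, at 13.2, 13.01 and 13.6 FPKM in Ctrl and 6.79, 6.67 and 6.92 FPKM in Ep2 (log2 fold change -0.87, SE 0.054, adjusted p = 3.94e-06). Of 16 anaphase and cohesion genes 13 fell (median -0.46). Espl1, separase, which cuts cohesin at anaphase, had 23.03, 21.6 and 20.8 FPKM in Ctrl and 9.12, 9.298 and 8.79 FPKM in Ep2 (log2 fold change -1.18, SE 0.053, adjusted p = 1.66e-06).

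The 4 mitosis genes that rose were Zwint, Cenpc1, Kif2a and Stag2. Zwint, an outer kinetochore protein, had 62.6, 62.3 and 66.5 FPKM in Ctrl and 87.6, 84.7 and 81.7 FPKM in Ep2 (log2 fold change 0.40, SE 0.044, adjusted p = 6.63e-05). Kif2a, a kinesin that shortens microtubules and also acts outside mitosis, had 13.7, 11.6 and 13.1 FPKM in Ctrl and 18.4, 17.3 and 19.1 FPKM in Ep2 (log2 fold change 0.48, SE 0.066, adjusted p = 0.000246). Cenpc1, which bridges centromeric chromatin and the kinetochore, and Stag2, a cohesin subunit that dividing and non-dividing cells use, had log2 fold changes of 0.36 and 0.21. Stag2 lost its call after the correction for length and GC content, with 0.076.

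DNA replication genes fell to a like degree. Of 90 tested genes in 4 lists 80 fell (88.9%), 2 rose and 51 fell beyond 0.6 (56.7%), with a median of -0.68. Deoxynucleotide synthesis had the lowest median, -0.79, with 13 of 14 genes lower. Tk1, the thymidine kinase of S phase, had 37.6, 38.8 and 35.2 FPKM in Ctrl and 13.7, 15.04 and 14.3 FPKM in Ep2 (log2 fold change -1.32, SE 0.069, adjusted p = 2.15e-06). Rrm2, the S phase subunit of ribonucleotide reductase, had 144, 138 and 140 FPKM in Ctrl and 63.2, 72.8 and 73.98 FPKM in Ep2 (log2 fold change -1.0, SE 0.06, adjusted p = 3.55e-06), and Rrm1, its large partner subunit, had 29.1, 28.98 and 29.3 FPKM in Ctrl and 16.7, 16.4 and 16.5 FPKM in Ep2 (log2 fold change -0.78, SE 0.04, adjusted p = 2.02e-06). Rrm2b, the subunit used outside S phase, was the list's 1 rise, with 1.81, 1.76 and 1.804 FPKM in Ctrl and 2.52, 2.13 and 2.34 FPKM in Ep2 (log2 fold change 0.25, SE 0.069, adjusted p = 0.0116), but after the correction for length and GC content it was 0.13 and no longer a call.

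Of 30 polymerase, clamp and fork genes 27 fell (median -0.72). Pold1, the catalytic subunit of DNA polymerase delta, had 21.3, 22.1 and 19.8 FPKM in Ctrl and 8.95, 7.96 and 8.48 FPKM in Ep2 (log2 fold change -1.22, SE 0.056, adjusted p = 1.66e-06). Its accessory subunit Pold2 had 70.1, 68.5 and 65.7 FPKM in Ctrl and 28.2, 25.8 and 24.01 FPKM in Ep2 (log2 fold change -1.36, SE 0.058, adjusted p = 1.48e-06). The small subunit of the same enzyme, Pold4, was the 1 rise, with 35.6, 37.8 and 34.3 FPKM in Ctrl and 55.8, 46.6 and 45.4 FPKM in Ep2 (log2 fold change 0.44, SE 0.085, adjusted p = 0.00177), so subunits of this enzyme moved in both directions. Pclaf, which binds the replication clamp, had 36.03, 36.5 and 37.9 FPKM in Ctrl and 17.4, 17.6 and 17.1 FPKM in Ep2 (log2 fold change -1.04, SE 0.045, adjusted p = 1.48e-06).

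Of 30 origin licensing and firing genes 26 fell (median -0.55). Mcm7, part of the replicative helicase, had 79.1, 76.1 and 74.2 FPKM in Ctrl and 34.3, 37.5 and 36.4 FPKM in Ep2 (log2 fold change -1.06, SE 0.047, adjusted p = 1.66e-06), and Gins1, part of the same moving helicase, had 27.5, 27.5 and 30.1 FPKM in Ctrl and 13.2, 12.7 and 12.4 FPKM in Ep2 (log2 fold change -1.09, SE 0.047, adjusted p = 1.48e-06). Recql4, which helps origins to fire, had 10.9, 11.4 and 9.898 FPKM in Ctrl and 3.14, 3.003 and 2.98 FPKM in Ep2 (log2 fold change -1.53, SE 0.06, adjusted p = 1.21e-06). Of 16 genes that copy chromatin 14 fell (median -0.66), including the histone chaperones Asf1b (-1.17) and Chaf1b (-1.05) and Uhrf1 (-1.13), which guides maintenance DNA methylation.

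These falls were also seen against the lower light dose. Between Ep2 and Ep1 over all genes, 5163 genes (44.9%) passed the test, 2223 higher in Ep2 (19.3%) and 2940 lower (25.6%). Of the 115 mitosis genes 109 were lower in Ep2 than in Ep1, and of the 90 replication genes 84. The 24 mitotic kinases and cyclins had a median log2 difference of -0.01 between Ep1 and Ctrl, beside -0.72 between Ep2 and Ctrl; the 2 contrasts share the Ctrl libraries and are set side by side only. Ccna2 had 41.6, 48.04 and 47.1 FPKM in Ep1, and differed between Ep2 and Ep1 by -1.0 log2 units (adjusted p = 3.75e-06).

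**Figure D3:**
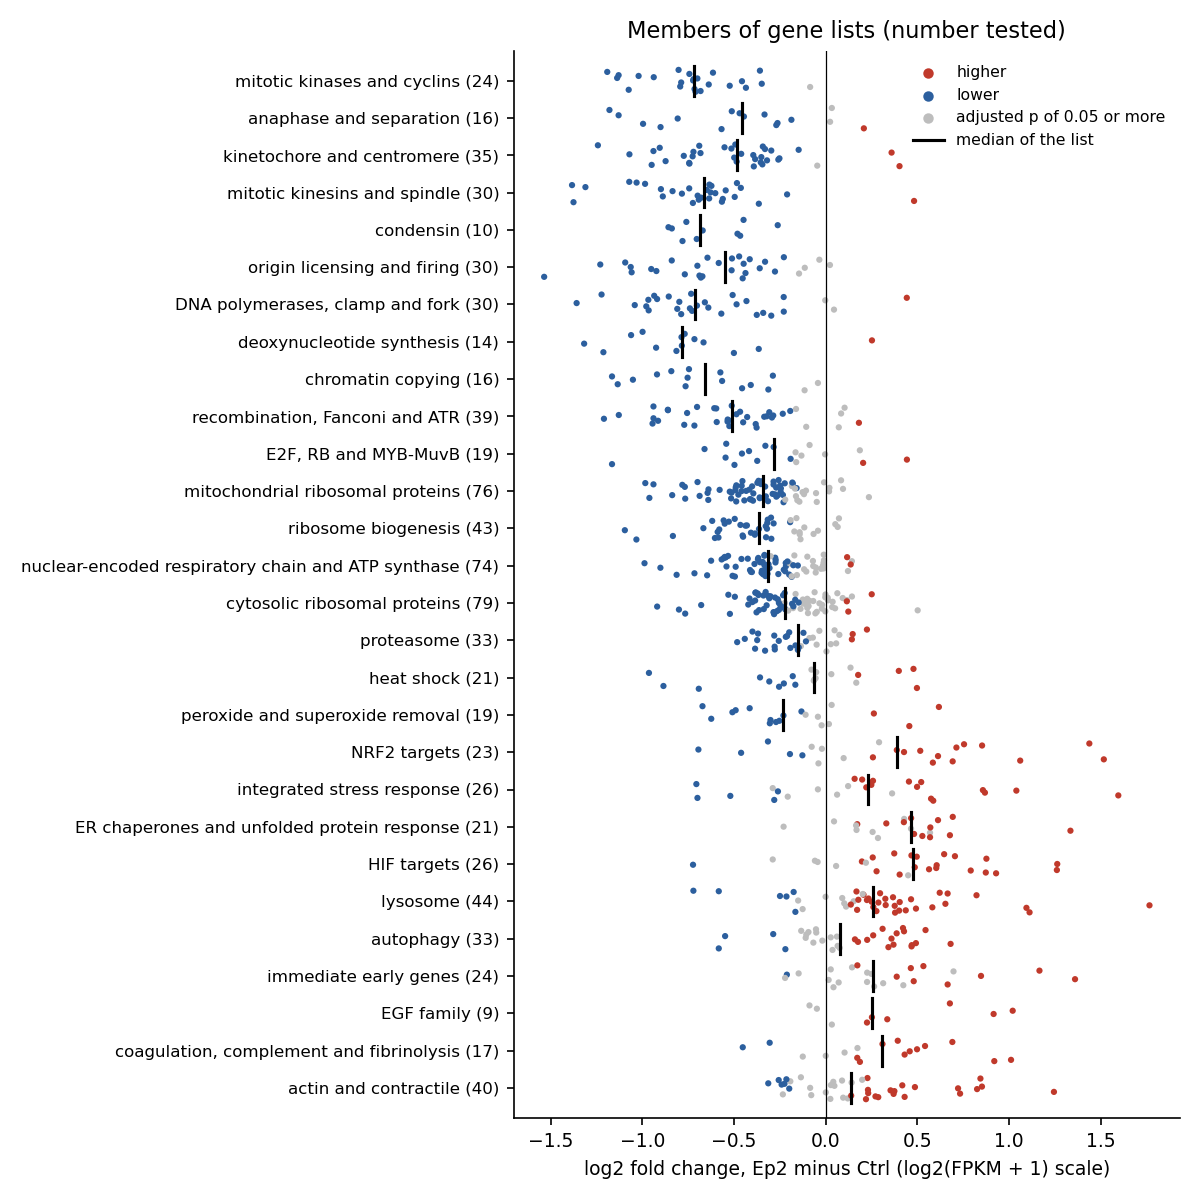
Log2 fold change (Ep2 minus Ctrl) of the tested members of 28 gene lists, 1 point a gene, coloured by whether it rose, fell or did not pass the test, with a bar at each list's median. The division lists have medians from -0.46 to -0.79, and the ER and HIF lists have medians of 0.47 and 0.48.

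DNA repair genes that work beside replication fell too. Of 39 recombination, Fanconi and ATR genes 33 fell and 1 rose, with a median of -0.51. The rise was in the nuclease Mus81 (0.18), a call lost without Ctrl replicate 1, 2 or 3 or without Ep2 replicate 2 or 3 (adjusted p = 0.0587 to 0.104). Rad54l, a motor of homologous recombination, had 3.998, 4.04 and 4.12 FPKM in Ctrl and 1.26, 1.14 and 1.16 FPKM in Ep2 (log2 fold change -1.21, SE 0.061, adjusted p = 1.82e-06). Among 25 genes of base, nucleotide and mismatch repair 17 fell and 2 rose (median -0.34). Parp1, which senses DNA breaks, had 35.9, 34.5 and 34.4 FPKM in Ctrl and 17.9, 19.9 and 18.9 FPKM in Ep2 (log2 fold change -0.86, SE 0.048, adjusted p = 2.95e-06). Neil3, a glycosylase made in S phase, fell as well (-1.08), while Ercc6, of transcription-coupled repair, and Mlh3, of mismatch repair, rose (0.37 and 0.38), with the call of Mlh3 lost after the correction for length and GC content, at 0.28.

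The regulators of these genes moved less uniformly. Of 19 E2F, RB and MuvB genes 11 fell and 2 rose. Mybl2, the B-MYB factor of late cell cycle genes, had 44.7, 44.4 and 41.1 FPKM in Ctrl and 19.01, 19.1 and 18.2 FPKM in Ep2 (log2 fold change -1.17, SE 0.046, adjusted p = 1.21e-06), and the repressor E2f7 fell (-0.66), while E2f3, an activating E2F, and E2f6, a repressor, rose (0.44 and 0.20). The call of E2f6 was lost without Ctrl replicate 1 or 3 or without Ep2 replicate 2 or 3 (adjusted p = 0.0576 to 0.0721). Among 21 G1 cyclins and CDK inhibitors 13 fell and 2 rose. Ccne1, cyclin E1, had 32.03, 30.7 and 30.6 FPKM in Ctrl and 9.72, 13.3 and 14.8 FPKM in Ep2 (log2 fold change -1.26, SE 0.12, adjusted p = 4.07e-05), and Cdk4, the kinase of G1, fell (-0.48). Btg1, an antiproliferative factor, had 16.2, 16.5 and 16.3 FPKM in Ctrl and 29.1, 31.4 and 32.4 FPKM in Ep2 (log2 fold change 0.88, SE 0.093, adjusted p = 5.68e-05), and Ccng2, a cyclin made in arrested cells, had 6.94, 6.51 and 6.76 FPKM in Ctrl and 14.01, 8.57 and 9.96 FPKM in Ep2 (log2 fold change 0.59, SE 0.14, adjusted p = 0.00664).

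Promoters of these groups were read in the 300 bases that RefSeq places around each gene start (250 before, 50 after, GRCm38.p6), where 8269 of the 11492 genes could be matched by symbol. The CHR element (TTTGAA, bound by MuvB) stood in 55.1% of the 98 matched mitosis promoters, beside 11.5% of all matched promoters and 22% of those of genes that fell beyond 0.6. The E2F motif (TTTCCCGC or TTCCCGCC) stood in 26.0% of the 73 matched replication promoters, beside 5.67% of all. Both strands were searched, and a match is a description of the letters, not evidence of binding. The promoter of Bub1b, whose fall is given above, shows the CHR element (capitals), and that of Pclaf shows 2 E2F motifs (capitals), both 5′ to 3′ on the gene's strand, with 250 bases before the gene start.

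Bub1b (chr2:118597961-118598260, plus strand): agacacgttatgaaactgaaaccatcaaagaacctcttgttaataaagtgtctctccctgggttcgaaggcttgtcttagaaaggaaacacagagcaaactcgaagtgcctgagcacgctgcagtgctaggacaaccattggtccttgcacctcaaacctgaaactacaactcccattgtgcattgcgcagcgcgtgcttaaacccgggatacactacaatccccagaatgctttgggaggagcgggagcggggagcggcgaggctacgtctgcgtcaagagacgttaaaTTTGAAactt

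Pclaf (chr9:65890073-65890372, plus strand): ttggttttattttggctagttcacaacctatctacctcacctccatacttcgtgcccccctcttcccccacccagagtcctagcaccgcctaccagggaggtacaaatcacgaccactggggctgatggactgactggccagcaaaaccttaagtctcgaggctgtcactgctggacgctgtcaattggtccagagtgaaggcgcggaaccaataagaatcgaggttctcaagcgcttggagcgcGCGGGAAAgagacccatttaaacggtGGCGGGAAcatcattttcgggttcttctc

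NRF2 targets rose more often than they fell. Of 23 NRF2 targets 13 rose and 5 fell (24.3% and 29.8% of all genes), with a median of 0.39. Hmox1, heme oxygenase, had 21.6, 21.8 and 20.4 FPKM in Ctrl and 85.96, 52.4 and 54.7 FPKM in Ep2 (log2 fold change 1.52, SE 0.17, adjusted p = 0.000188). Slc7a11, the cystine importer that feeds glutathione synthesis, had 5.42, 5.08 and 5.76 FPKM in Ctrl and 16.01, 15.9 and 17.2 FPKM in Ep2 (log2 fold change 1.44, SE 0.07, adjusted p = 1.82e-06). At the lower dose both were also above Ctrl. Hmox1 had 59.01, 51.9 and 49.4 FPKM in Ep1, a range that only Ep2 replicate 1 exceeded while both other Ep2 libraries lay within it. Slc7a11 had 12.6, 10.4 and 11.5 FPKM in Ep1 and differed between Ep2 and Ep1 by 0.48 log2 units (adjusted p = 0.00052). Gclc, the rate-limiting enzyme of glutathione synthesis, had 21.6, 19.9 and 21.1 FPKM in Ctrl and 33.7, 33.7 and 35.6 FPKM in Ep2 (log2 fold change 0.69, SE 0.045, adjusted p = 5.07e-06), and Me1, malic enzyme, which makes NADPH, had 27.9, 25.7 and 28.02 FPKM in Ctrl and 51.2, 47.6 and 50.9 FPKM in Ep2 (log2 fold change 0.85, SE 0.068, adjusted p = 1.25e-05). The list's 5 falls were Nqo1, the quinone reductase, G6pdx and Tkt, of the pentose phosphate pathway, Txn1, thioredoxin, and Ephx1, an epoxide hydrolase, with the call of Tkt lost without Ctrl replicate 1 or 2 or without Ep2 replicate 2 or 3 (adjusted p = 0.0635 to 0.107) and when libraries were centred on the median gene, at -0.08. Nqo1, often taken as the leading NRF2 target, had 84.2, 83.7 and 87.6 FPKM in Ctrl and 73.7, 72.7 and 76.5 FPKM in Ep2 (log2 fold change -0.19, SE 0.038, adjusted p = 0.00181), and Txn1 had 467, 481 and 485 FPKM in Ctrl and 407, 401 and 346 FPKM in Ep2 (log2 fold change -0.31, SE 0.062, adjusted p = 0.00199). G6pdx, which makes NADPH like Me1, went against it with 63.5, 62.8 and 63.1 FPKM in Ctrl and 46.9, 47.7 and 42.4 FPKM in Ep2 (log2 fold change -0.46, SE 0.053, adjusted p = 9.35e-05).

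Enzymes that remove peroxide and superoxide mostly did not rise. Of 19 tested 11 fell and 3 rose, beside 29.8% and 24.3% of all genes (median -0.23). The mitochondrial pair Prdx3 and Txn2, a peroxiredoxin and the thioredoxin of the same compartment, fell (-0.62 and -0.67). Gpx8, a peroxidase of the ER, had 40.8, 38.98 and 41.01 FPKM in Ctrl and 63.5, 61.1 and 62.3 FPKM in Ep2 (log2 fold change 0.62, SE 0.043, adjusted p = 6.81e-06). Of 19 heme and iron genes 9 fell and 3 rose. Steap3, an iron reductase of endosomes, fell (-0.61), while Fech, which puts iron into protoporphyrin, and Abcg2, an exporter of porphyrins, rose slightly (0.18 and 0.21). The call of Fech was lost without Ctrl replicate 1 or 3 or without Ep2 replicate 2 or 3 (adjusted p = 0.0684 to 0.0872), and that of Abcg2 was lost without Ctrl replicate 1, 2 or 3 or without Ep2 replicate 2 or 3 (adjusted p = 0.0571 to 0.109) and, with length and GC corrected, at 0.073. Without Ctrl replicate 1 or 3 or Ep2 replicate 2 the list had 1 rise.

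Of 21 heat shock genes tested 4 rose and 9 fell, beside 24.3% and 29.8% of all genes (median -0.07), and none rose beyond 0.6. The rises numbered 2 without Ctrl replicate 2 or 3 or without Ep2 replicate 2 or 3. Hspe1, the mitochondrial co-chaperonin, had 159, 166 and 155 FPKM in Ctrl and 87.5, 89.3 and 82.2 FPKM in Ep2 (log2 fold change -0.88, SE 0.065, adjusted p = 8.28e-06). Fkbp4 and Ahsa1, partners of HSP90, fell too (-0.96 and -0.69). The small heat shock gene Hspb8 had 71.03, 70.1 and 72.96 FPKM in Ctrl and 100.4, 98.8 and 100.4 FPKM in Ep2 (log2 fold change 0.48, SE 0.051, adjusted p = 5.96e-05).

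ER chaperones and genes of the unfolded protein response rose. Of 21 tested 12 rose and none fell (24.3% and 29.8% of all genes), with a median of 0.47. Ero1l, the ER oxidase that renews disulfide bonds, had 33.9, 32.5 and 39.5 FPKM in Ctrl and 109, 81.7 and 82.9 FPKM in Ep2 (log2 fold change 1.33, SE 0.15, adjusted p = 0.000184). Sel1l, of the complex that exports misfolded proteins, had 12.8, 13.5 and 13.3 FPKM in Ctrl and 24.5, 20.7 and 20.1 FPKM in Ep2 (log2 fold change 0.68, SE 0.077, adjusted p = 8.31e-05), and Pdia3, a disulfide isomerase, had 339, 336 and 343 FPKM in Ctrl and 451, 412 and 418 FPKM in Ep2 (log2 fold change 0.33, SE 0.043, adjusted p = 0.00017). Hspa5, the main ER chaperone BiP, had 283, 290.4 and 301 FPKM in Ctrl and 648, 375 and 366 FPKM in Ep2 (log2 fold change 0.61, SE 0.20, adjusted p = 0.0319), with Ep2 replicate 1 well above both others. Without that library its log2 fold change was 0.34, still a call, while the call was lost without Ctrl replicate 1, 2 or 3 (adjusted p = 0.0536 to 0.0788). The same library carried the highest values of Creld2, an ER chaperone that did not pass the test, with 46.2, 47.5 and 45.6 FPKM in Ctrl and 134, 52.5 and 47.2 FPKM in Ep2. Without Ep2 replicate 1 the list's median fell to 0.29, with 15 genes higher and 1 lower.

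The NF-Y box (CCAAT), part of ER stress elements, stood in 16 of the 17 matched promoters of this list (94.1%), beside 39% of all matched promoters. The box is not particular to this list: it also stood in 66.3% of the mitosis and 52.1% of the replication promoters, whose genes mostly fell. The Hspa5 promoter holds 4 such boxes (capitals):

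Hspa5 (chr2:34771840-34772139, plus strand): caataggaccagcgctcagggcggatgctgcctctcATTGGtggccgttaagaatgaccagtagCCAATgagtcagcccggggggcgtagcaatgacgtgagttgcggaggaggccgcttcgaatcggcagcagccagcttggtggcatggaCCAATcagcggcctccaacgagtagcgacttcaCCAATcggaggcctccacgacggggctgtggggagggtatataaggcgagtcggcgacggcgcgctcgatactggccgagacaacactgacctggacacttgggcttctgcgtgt

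Of 26 integrated stress response genes 15 rose and 5 fell, beside 24.3% and 29.8% of all genes (median 0.23). Atf3 had 1.88, 2.21 and 1.73 FPKM in Ctrl and 5.38, 6.303 and 13.9 FPKM in Ep2 (log2 fold change 1.60, SE 0.51, adjusted p = 0.0298), with its 3 Ep2 libraries far apart. That call was lost without Ctrl replicate 1, 2 or 3 or without Ep2 replicate 3 (adjusted p = 0.0602 to 0.101) and with voom and TMM on recovered fragments (adjusted p = 0.159). Atf5, a related factor, had 33.3, 34.7 and 30.6 FPKM in Ctrl and 60.6, 61.7 and 58.8 FPKM in Ep2 (log2 fold change 0.86, SE 0.069, adjusted p = 1.3e-05). Vldlr, a lipoprotein receptor that ATF4 induces, had 6.09, 6.48 and 6.32 FPKM in Ctrl and 15.4, 12.8 and 13.8 FPKM in Ep2 (log2 fold change 1.04, SE 0.083, adjusted p = 1.24e-05). Among the falls were Slc7a5 and Slc1a5, carriers of large neutral amino acids and of glutamine, with log2 fold changes of -0.52 and -0.70, and Shmt2, of mitochondrial folate metabolism (-0.70). The amino acid response element (TGATGNAA) stood in 6 of 23 matched promoters of the list (26.1%), beside 1.90% of all matched promoters. Slc7a11, named above among the NRF2 targets and not a member of this list, has 2 of them (capitals):

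Slc7a11 (chr3:50443564-50443863, minus strand): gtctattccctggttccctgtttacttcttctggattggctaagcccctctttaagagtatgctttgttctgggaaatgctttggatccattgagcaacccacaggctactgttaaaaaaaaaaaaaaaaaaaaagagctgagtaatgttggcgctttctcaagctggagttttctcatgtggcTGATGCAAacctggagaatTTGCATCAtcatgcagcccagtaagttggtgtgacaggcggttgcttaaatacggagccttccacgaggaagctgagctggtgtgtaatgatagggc

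HIF targets had the highest share of rises among the oxidant, heat, ER, integrated stress and HIF lists. Of 26 tested 19 rose and 1 fell, 10 rose beyond 0.6 (against 3.27% of all genes), and the median was 0.48. Bnip3 and Bnip3l, which mark mitochondria for autophagy, had 22.4, 24.6 and 27.1 FPKM in Ctrl and 79.5, 52.4 and 52.7 FPKM in Ep2 (log2 fold change 1.26, SE 0.20, adjusted p = 0.00108) and 35.7, 37.3 and 38.4 FPKM in Ctrl and 64.9, 59.9 and 58.8 FPKM in Ep2 (log2 fold change 0.71, SE 0.056, adjusted p = 1.22e-05). Car9, the carbonic anhydrase at the cell surface, had 1.62, 1.93 and 1.94 FPKM in Ctrl and 4.24, 4.18 and 4.76 FPKM in Ep2 (log2 fold change 0.93, SE 0.096, adjusted p = 4.92e-05), and Ndrg1, a stress-induced protein, had 15.9, 15.6 and 15.3 FPKM in Ctrl and 46.8, 33.9 and 36.8 FPKM in Ep2 (log2 fold change 1.26, SE 0.16, adjusted p = 0.000301). The other surface carbonic anhydrase of the list, Car12, was the 1 fall, with 4.703, 4.66 and 4.03 FPKM in Ctrl and 2.15, 2.21 and 2.57 FPKM in Ep2 (log2 fold change -0.72, SE 0.078, adjusted p = 6.24e-05). In Bnip3 and Ndrg1 Ep2 replicate 1 was the highest library: without it their log2 fold changes were 1.06 and 1.13, and the list then had 20 rises with a median of 0.38. Egln3, a HIF prolyl hydroxylase, depended on it more, with 0.65 with that library and 0.37 without it, and its call was lost without Ctrl replicate 1, 2 or 3 (adjusted p = 0.067 to 0.0703).

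The core of the hypoxia response element (ACGTG) stood in 15 of the 21 matched promoters of this list (71.4%), beside 27.0% of all matched promoters. In Bnip3 it is part of a palindrome that is read on both strands (capitals):

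Bnip3 (chr7:138909457-138909756, minus strand): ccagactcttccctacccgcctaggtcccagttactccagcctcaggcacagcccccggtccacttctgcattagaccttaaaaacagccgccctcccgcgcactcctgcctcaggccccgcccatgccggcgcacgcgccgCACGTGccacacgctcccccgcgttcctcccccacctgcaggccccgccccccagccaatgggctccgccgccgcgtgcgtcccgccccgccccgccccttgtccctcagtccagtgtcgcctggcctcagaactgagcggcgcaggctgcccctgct

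The glycolytic enzymes themselves were divided, with 7 of 17 higher (4 without Ctrl replicate 2) and 3 lower, beside 24.3% and 29.8% of all genes. Their median of 0.19 became 0.08 without Ep2 replicate 1. Aldoc, an aldolase, had 31.3, 35.7 and 34.2 FPKM in Ctrl and 72.9, 69.7 and 64.9 FPKM in Ep2 (log2 fold change 1.01, SE 0.10, adjusted p = 5.7e-05). Pfkp, of the committed step, rose (0.49), as did Gfpt1, which draws sugar into hexosamines (0.50), whereas Eno1, enolase, and the lactate carrier Slc16a1 fell slightly (-0.23 and -0.27).

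Lysosomal genes rose broadly. Of 44 tested 30 rose (68.2%, against 24.3% of all genes) and 6 fell (3 without Ctrl replicate 2), with a median of 0.26. Mitf, a transcription factor of lysosomal genes, had 2.33, 1.93 and 2.18 FPKM in Ctrl and 4.598, 4.42 and 4.67 FPKM in Ep2 (log2 fold change 0.82, SE 0.064, adjusted p = 1.13e-05). Tfeb, the related master factor of this set, went the other way with 4.89, 5.104 and 4.38 FPKM in Ctrl and 2.94, 2.71 and 2.94 FPKM in Ep2 (log2 fold change -0.58, SE 0.063, adjusted p = 5.98e-05), and so did Gusb, beta-glucuronidase (-0.72). Against Ep1, 32 of the 44 were higher in Ep2 and 2 lower. Cd68 had 25.2, 21.1 and 20.1 FPKM in Ep1, and differed between Ep2 and Ep1 by 1.87 log2 units (adjusted p = 3.56e-06).

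Of 33 autophagy genes 16 rose (48.5%) and 4 fell (12.1%), against 24.3% and 29.8% of all genes, with a median of 0.08, close to no change. Gabarap and Gabarapl1, which are joined to the autophagosome membrane, had 100.1, 99.1 and 104 FPKM in Ctrl and 163, 159 and 166 FPKM in Ep2 (log2 fold change 0.68, SE 0.048, adjusted p = 7.03e-06) and 40.9, 42.6 and 44.04 FPKM in Ctrl and 61.2, 60.8 and 65.5 FPKM in Ep2 (log2 fold change 0.54, SE 0.056, adjusted p = 4.67e-05). Atg101 and Atg2a, of initiation and lipid transfer, fell (-0.55 and -0.29), with the call of Atg2a lost after the correction for length and GC content, at -0.13.

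Genes that build mitochondria and ribosomes fell by small amounts in large numbers. Of 74 nuclear genes of the respiratory chain and ATP synthase 52 fell and 2 rose (median -0.31). Ndufb10, of complex I, had 70.4, 77.9 and 74.7 FPKM in Ctrl and 47.8, 50.3 and 45.5 FPKM in Ep2 (log2 fold change -0.62, SE 0.055, adjusted p = 1.95e-05), and Atp5g1, which encodes the ATP synthase ring, had 36.05, 37.2 and 32.6 FPKM in Ctrl and 19.5, 21.7 and 17.9 FPKM in Ep2 (log2 fold change -0.81, SE 0.074, adjusted p = 2.42e-05). Of 76 mitochondrial ribosomal proteins 59 fell and none rose (median -0.34), with Mrpl12 at the smallest adjusted p, having 82.5, 83.6 and 86.5 FPKM in Ctrl and 43.4, 44.3 and 38.8 FPKM in Ep2 (log2 fold change -0.98, SE 0.053, adjusted p = 2.38e-06). Of 15 mitochondrial genome transcripts 5 rose and none fell, with mt-Nd6, the 1 subunit coded on the light strand, at 475, 469 and 539 FPKM in Ctrl and 805, 733 and 814 FPKM in Ep2 (log2 fold change 0.67, SE 0.062, adjusted p = 2.63e-05). Their median, 0.05, became -0.09 under another scaling, so no direction is read from the list. The counting is not stated to use strand, so fragments of mt-Nd6 and of the strand opposite it cannot be told apart.

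Of 43 ribosome biogenesis genes 31 fell and none rose, beside 29.8% and 24.3% of all genes (median -0.36). Bop1, of large subunit assembly, had 81.5, 80.3 and 74.7 FPKM in Ctrl and 36.96, 38.1 and 39 FPKM in Ep2 (log2 fold change -1.03, SE 0.056, adjusted p = 2.38e-06), and Fbl, fibrillarin, which methylates ribosomal RNA, fell as well (-0.58). Of 79 cytosolic ribosomal proteins 42 fell and 3 rose (median -0.22, or -0.14 without Ep2 replicate 3, with 1 rise without Ctrl replicate 1 or Ep2 replicate 2), and under other scalings 28 to 38 fell and 4 to 9 rose. Of 33 proteasome genes 20 fell and 3 rose (1 without Ctrl replicate 1 or 2), and of 23 aminoacyl-tRNA synthetase genes 13 fell and 3 rose. Among the synthetases Vars and Mars, for valine and methionine, fell (-0.79 and -0.68), whereas Sars, for serine, rose (0.37).

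Immediate early genes had like medians at both light doses, though some members differed. Of 24 tested 9 rose (14 after the correction for length and GC content) and 1 fell in Ep2 (median 0.26). The median was 0.245 between Ep1 and Ctrl and -0.008 between Ep2 and Ep1. In that last contrast 2 genes were higher in Ep2 and 4 lower, beside 19.3% and 25.6% of all genes. Klf10, Egr2 and Fosl2 rose (0.48, 0.46 and 0.53), as did Nr4a1, a nuclear receptor, with 4.91, 4.65 and 4.02 FPKM in Ctrl and 8.46, 9.92 and 17.3 FPKM in Ep2 (log2 fold change 1.17, SE 0.30, adjusted p = 0.0131). Fos, Jun and Egr1, named here after their values were seen, did not pass the test in Ep2. Fos had 1.76, 1.56 and 1.85 FPKM in Ctrl and 2.54, 1.704 and 4.097 FPKM in Ep2, beside 16.1, 4.66 and 4.51 FPKM in Ep1. Jun had 17.1, 19 and 17.4 FPKM in Ctrl and 13.6, 13.8 and 18.6 FPKM in Ep2, beside 48.1, 24.8 and 26.6 FPKM in Ep1, and differed between Ep2 and Ep1 by -1.02 log2 units (adjusted p = 0.0105). Egr1 had 3.83, 5.03 and 4.25 FPKM in Ctrl and 5.803, 4.43 and 5.61 FPKM in Ep2, beside 11.3, 7.13 and 8.72 FPKM in Ep1, and differed by -0.67 log2 units (adjusted p = 0.00798). Fos, Jun and Egr1 were thus highest in Ep1, where replicate 1 lay above both others for each.

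Of 9 tested genes in a list of the EGF family and its regulators, 6 rose (66.7%, against 24.3% of all genes) and none fell. Ligands of the family can act on the cells that release them, and Adam17, Errfi1 and Lrig1 are the regulators in the list. Of the list's 13 genes 4 did not pass the filter. Areg, amphiregulin, had 26.4, 28.7 and 30.1 FPKM in Ctrl and 60.6, 56 and 59.1 FPKM in Ep2 (log2 fold change 1.02, SE 0.088, adjusted p = 1.87e-05), and Ereg, epiregulin, had 7.88, 7.85 and 7.68 FPKM in Ctrl and 15.5, 15.2 and 16.1 FPKM in Ep2 (log2 fold change 0.92, SE 0.055, adjusted p = 3.55e-06). Tgfa, another ligand, had 4.24, 3.95 and 3.97 FPKM in Ctrl and 7.82, 6.49 and 6.97 FPKM in Ep2 (log2 fold change 0.68, SE 0.079, adjusted p = 9.4e-05). Of 18 genes of ERK feedback 11 rose and 2 fell, with the phosphatases Dusp2 and Dusp16 higher (0.59 and 0.66) and the ETS factors Etv4 and Etv5 lower (-0.42 and -0.44). Of 12 KLF factors 8 rose and none fell (median 0.39), led by Klf5, with 5.64, 5.61 and 5.51 FPKM in Ctrl and 11.4, 11.9 and 14.2 FPKM in Ep2 (log2 fold change 1.03, SE 0.089, adjusted p = 1.88e-05).

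Among 9 tested genes that the study had assayed by PCR as members of enriched pathways, 8 rose, all beyond 0.6, but that list was picked from these same libraries and is not independent evidence of its direction. Their median log2 fold change was 1.01 in Ep2 and 0.83 in Ep1, both against Ctrl, and 3 of the 9 were higher in Ep2 than in Ep1. Irs2, an adaptor of the insulin receptor, had 2.6, 2.64 and 2.44 FPKM in Ctrl and 5.29, 5.19 and 5.54 FPKM in Ep2 (log2 fold change 0.83, SE 0.069, adjusted p = 1.45e-05). F2rl1, a receptor cut by proteases at the cell surface, had 10.9, 12.4 and 12.04 FPKM in Ctrl and 28.7, 22.7 and 23.1 FPKM in Ep2 (log2 fold change 1.01, SE 0.10, adjusted p = 4.01e-05). The paper's list of genes with a rise by PCR includes Irs2 but leaves out F2rl1, Fosb and Atf3.

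**Figure D4:**
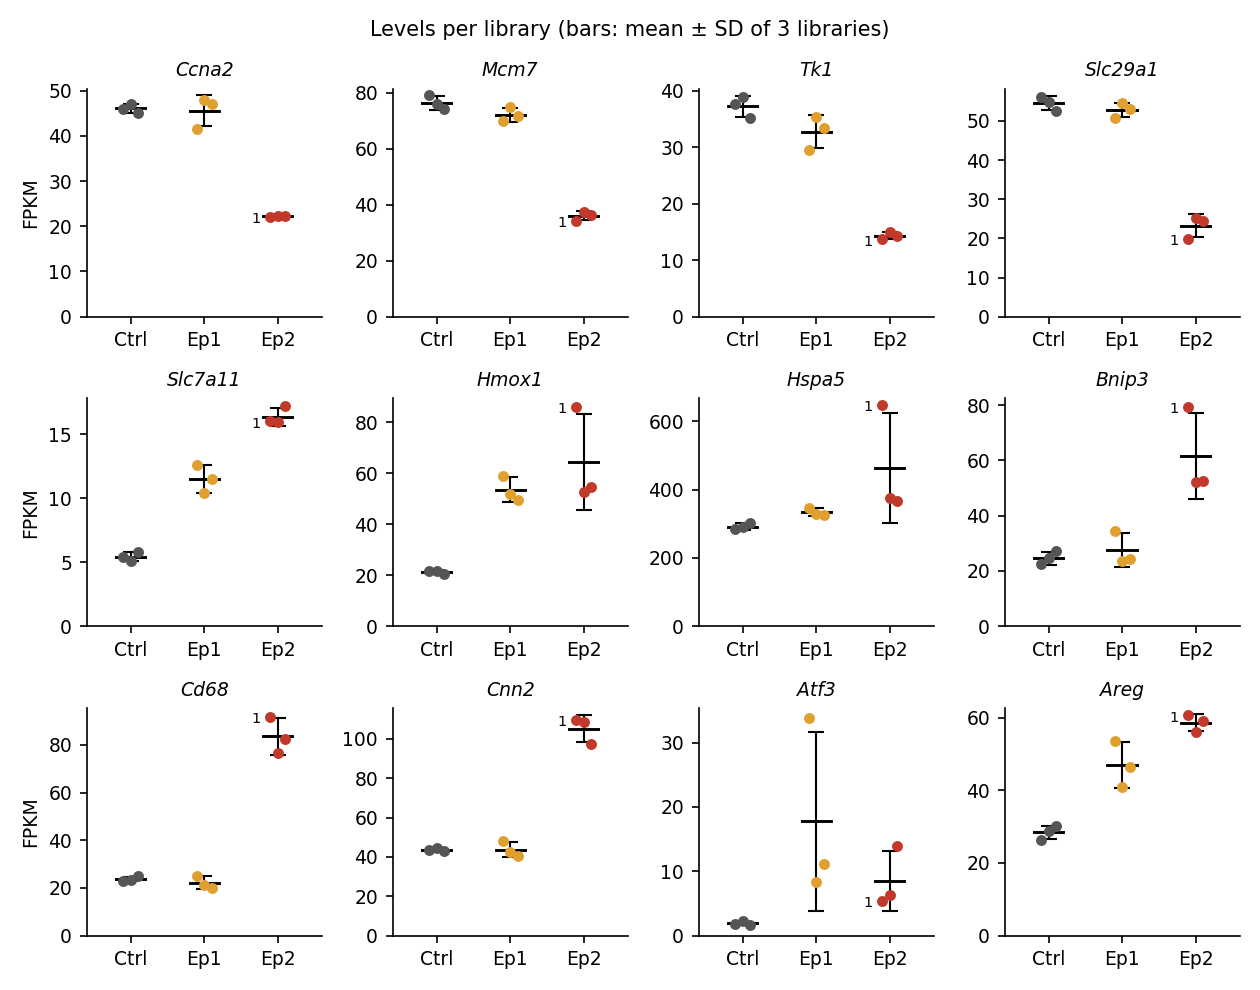
Levels in FPKM of 12 genes in each library of Ctrl, Ep1 and Ep2, with the group mean and SD (n = 3) as bars and Ep2 replicate 1 marked with a 1. Ccna2, Mcm7 and Tk1 drop at 20 J/cm2, Cd68 and Cnn2 rise there, and the 3 Ep2 libraries of Hspa5 are spread with replicate 1 on top.

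Clotting and cytokine genes held several clear rises. Of 17 coagulation, complement and fibrinolysis genes 11 rose and 2 fell, beside 24.3% and 29.8% of all genes (median 0.31). F3, tissue factor, which starts clotting, had 13.4, 13.03 and 13.3 FPKM in Ctrl and 20.2, 19.4 and 19.7 FPKM in Ep2 (log2 fold change 0.54, SE 0.059, adjusted p = 6.17e-05), and Plaur, the urokinase receptor, had 58.8, 56.9 and 57.1 FPKM in Ctrl and 82.4, 85.5 and 77.6 FPKM in Ep2 (log2 fold change 0.50, SE 0.046, adjusted p = 2.55e-05). C3, the central complement protein, fell (-0.31), a call lost after the correction for length and GC content, at -0.20. Of 19 cytokine, chemokine and adhesion genes 7 rose and 1 fell. Il11 had 2.19, 2.69 and 1.82 FPKM in Ctrl and 7.38, 7.52 and 11.5 FPKM in Ep2 (log2 fold change 1.58, SE 0.18, adjusted p = 0.000179). Sele, E-selectin, which catches leukocytes, had 6.57, 7.16 and 7.49 FPKM in Ctrl and 14.4, 14.1 and 12.4 FPKM in Ep2 (log2 fold change 0.86, SE 0.079, adjusted p = 2.63e-05), while Selp, P-selectin, fell (-0.26), a call lost without Ctrl replicate 1 or 2 or without Ep2 replicate 2 or 3 (adjusted p = 0.0643 to 0.128) and also lost when libraries were centred on the median gene or corrected for length and GC content (-0.21 and -0.19).

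The AP-1 motif (TGANTCA) stood in 14.3% of the 237 matched promoters of genes that rose beyond 0.6, beside 4.81% of all matched promoters and 2.18% of the 504 of genes that fell beyond 0.6. The Il11 promoter holds 1 (capitals):

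Il11 (chr7:4778092-4778391, minus strand): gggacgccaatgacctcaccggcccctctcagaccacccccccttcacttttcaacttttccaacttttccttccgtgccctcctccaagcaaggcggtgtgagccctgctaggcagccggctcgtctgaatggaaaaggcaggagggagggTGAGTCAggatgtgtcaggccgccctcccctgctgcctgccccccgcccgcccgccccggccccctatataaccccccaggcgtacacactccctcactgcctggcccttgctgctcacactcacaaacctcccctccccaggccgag

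**Figure D5:**
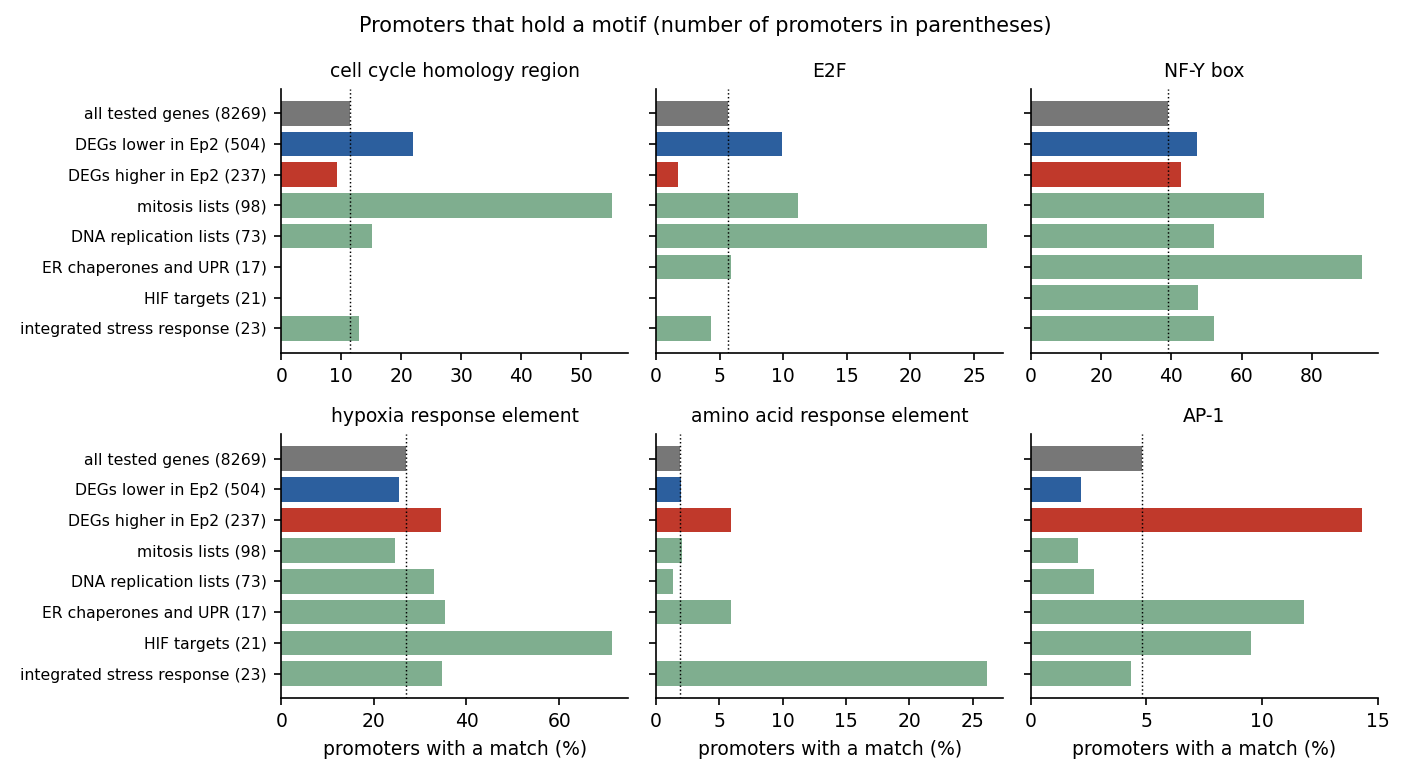
Percent of matched RefSeq promoters (300 bases) that hold each of 6 motifs, in all tested genes, in genes that rose or fell beyond 0.6 and in gene lists. CHR is most frequent in the mitosis lists (55.1%), NF-Y in the ER list (94.1%) and the hypoxia core in the HIF list (71.4%).

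Of 20 genes of NF-kB subunits and feedback 6 rose and 4 fell, with Rela and Ikbkg higher (0.29 and 0.60) and Nfkb2 and Nfkbie lower (-0.55 and -0.52). Of 20 interferon and MHC class I genes 9 fell and 6 rose (24.3% of all genes). Psmb10 and Tap1, of the immunoproteasome and peptide transport, fell (-0.78 and -0.59), while B2m, the light chain of class I, rose (0.24). The 45% of the interferon list that fell stand beside 29.8% of all genes, and its rises dropped to 3 without Ctrl replicate 1 or without Ctrl replicate 2. In the NF-kB list 10 genes rose when libraries were centred on the median gene.

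Of 40 actin and contractile genes 19 rose (47.5%) and 6 fell (15%), against 24.3% and 29.8% of all genes (median 0.14). Cnn2, calponin 2, had 43.3, 44.6 and 43.1 FPKM in Ctrl and 109.8, 108 and 97.2 FPKM in Ep2 (log2 fold change 1.25, SE 0.068, adjusted p = 2.47e-06), and Vcl, vinculin, which ties actin to adhesions, had 32.9, 32.4 and 31.5 FPKM in Ctrl and 56.4, 53.4 and 51.8 FPKM in Ep2 (log2 fold change 0.72, SE 0.043, adjusted p = 3.56e-06). Cfl1 and Pfn1, cofilin and profilin, which turn actin over, fell (-0.31 and -0.22), though Pfn1 lost its call after the correction for length and GC content, with -0.10. Of 20 annexin and S100 genes, several of which act in membrane repair, 11 rose and 1 fell. Anxa6 had 37.6, 33.9 and 35.9 FPKM in Ctrl and 60.4, 66.3 and 66.2 FPKM in Ep2 (log2 fold change 0.83, SE 0.065, adjusted p = 1.2e-05) and Anxa3 had 32.8, 36.05 and 36.04 FPKM in Ctrl and 53.8, 52.4 and 54.96 FPKM in Ep2 (log2 fold change 0.61, SE 0.056, adjusted p = 2.55e-05), while S100a4 was the fall (-0.66). Of 15 metalloproteinases and inhibitors 10 rose (6 without Ctrl replicate 1) and 2 fell, with Mmp10, a stromelysin, at 31.4, 33.9 and 36.3 FPKM in Ctrl and 57.1, 59.8 and 67.8 FPKM in Ep2 (log2 fold change 0.84, SE 0.14, adjusted p = 0.00101).

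Of 24 barrier transporters and caveolar genes 8 rose and 9 fell, beside 24.3% and 29.8% of all genes (median -0.03, the same as all genes). Slc29a1, the nucleoside carrier, fell most, with 56.1, 54.9 and 52.6 FPKM in Ctrl and 19.8, 25.3 and 24.4 FPKM in Ep2 (log2 fold change -1.21, SE 0.08, adjusted p = 5.46e-06). Abcb1b, a P-glycoprotein gene, had 4.51, 3.92 and 4.71 FPKM in Ctrl and 2.23, 2.803 and 2.56 FPKM in Ep2 (log2 fold change -0.61, SE 0.08, adjusted p = 0.000194), and Abcc4, another drug exporter, had 17.7, 18.2 and 18.7 FPKM in Ctrl and 20.8, 23.3 and 23.7 FPKM in Ep2 (log2 fold change 0.30, SE 0.054, adjusted p = 0.00139). Slc2a1, the glucose carrier of the barrier, had 91.7, 94.3 and 93.5 FPKM in Ctrl and 164, 118 and 118 FPKM in Ep2 (log2 fold change 0.50, SE 0.13, adjusted p = 0.00984), with Ep2 replicate 1 on top and a log2 fold change of 0.34 without it. Slco1a4, Slco2b1 and Slc22a8, defining carriers of the barrier, were listed at 0 in all 6 libraries, with the limit on listed zeros given above, and Abcb1a, the other P-glycoprotein gene, had 0.226 to 0.659 FPKM. Of 9 tested transporters that the study assayed by PCR 4 rose and 2 fell, with Slc22a18 higher (0.38) and Slc35b2 lower (-0.50). By PCR at the same light dose, the paper reports lower Slc22a18, Slc2a3, Slc35f6, Abcc1 and Slc17a5, and higher Abcc4. Slc22a18 thus went the opposite way in these libraries, Abcc4 rose in both, and Slc2a3 did not pass the filter.

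Of 13 junction genes 4 rose (30.8%) and 3 fell (23.1%), near the shares over all genes (24.3% and 29.8%). Tjp1, ZO-1, had 31.3, 30.1 and 29.2 FPKM in Ctrl and 41.5, 35.2 and 37.6 FPKM in Ep2 (log2 fold change 0.32, SE 0.059, adjusted p = 0.0013), and F11r, the adhesion molecule JAM-A, had 14.3, 13.5 and 14.1 FPKM in Ctrl and 21.7, 17.8 and 16.98 FPKM in Ep2 (log2 fold change 0.40, SE 0.077, adjusted p = 0.00175). Gja1, the gap junction protein connexin 43, had 13.3, 12.8 and 13.7 FPKM in Ctrl and 7.84, 8.88 and 9.18 FPKM in Ep2 (log2 fold change -0.57, SE 0.071, adjusted p = 0.000139). Among vasoactive genes 4 of 5 tested rose (24.3% of all genes), but the list has 15 genes and the others did not pass the filter. Ptgs2, the inducible cyclooxygenase, had 32.5, 35.97 and 36.1 FPKM in Ctrl and 54.4, 56.7 and 83.4 FPKM in Ep2 (log2 fold change 0.85, SE 0.22, adjusted p = 0.0133), and Ace, the angiotensin-converting enzyme, had 0.971, 1.41 and 1.24 FPKM in Ctrl and 2.56, 2.22 and 2.88 FPKM in Ep2 (log2 fold change 0.69, SE 0.12, adjusted p = 0.000831).

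Cell death genes rose and fell in shares near those of all genes (24.3% and 29.8%). Of 12 BCL2 family genes 5 rose and 4 fell: the survival genes Mcl1 and Bcl2l2 and the death gene Bcl2l11 (BIM) rose (0.33, 0.34 and 0.43), and the death genes Bax, Bok and Bad fell (-0.39, -0.51 and -0.57). Of 19 genes of caspases, death receptors and necroptosis 3 rose (15.8%) and 5 fell (26.3%, 2 or 3 fell without any of Ctrl replicates 1 to 3 or Ep2 replicate 2). Cflar, the inhibitor cFLIP, had 4.003, 3.95 and 4.196 FPKM in Ctrl and 7.04, 6.404 and 7.12 FPKM in Ep2 (log2 fold change 0.64, SE 0.074, adjusted p = 9.69e-05), and Xiap, an inhibitor of caspases, rose too (0.44), while Gsdmd, the executor of pyroptosis, fell (-0.51).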

How the data were processed

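Gene levels of 9 RNA-seq libraries (paired-end Illumina reads) were read from the deposited table of FPKM values, which the authors had computed per gene after alignment. The submitters' processing notes name Bowtie 0.12.2 and mm8, the study's methods name GRCm39, and the deposited gene coordinates lie on GRCm38 (99.9% of 37624 matched genes overlapped there). The counting tool is not given in the sources used here. Whole fragments were recovered from the FPKM steps and gene lengths (100% of values whole within 0.05) to obtain depth, which limits the precision of low genes.

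Values were tested as log2(FPKM + 1) with limma 3.58.1 in R 4.3.3 (trend and robust options), with the 3 groups in 1 fit without a replicate block, and adjusted by Benjamini-Hochberg over the 11492 genes kept. Fold changes are on this scale, which understates changes of low genes. Tested on simulated data, the fit called 95 of 100 genes changed by 1 log2 unit and 6 of 11292 unchanged ones. A call in the simulation also needed a log2 fold change beyond 0.6, so these counts give no error rate for rose and fell. In the simulation 11292 of 11492 genes were unchanged, whereas 54.2% of genes passed the test in the data. The simulated spread was set by a formula and not estimated from these libraries, and no simulated library stood apart. Changed genes were drawn only from those above a minimum level, so the share found is not the share to be found in these data. No source states that replicates were separate cultures, so p-values measure the spread between these samples, which may be technical.

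The genes named are the 12 largest rises and falls of protein-coding genes at a mean of at least 5 FPKM whose groups did not overlap, the 5 largest gains and losses in FPKM, up to 3 members of each gene list in each direction by adjusted p, markers, and others that bear on these. The comparison, its gene lists and the motifs were chosen with earlier results of these data known. 102 symbols belong to more than 1 gene, and those were given no value. Alternatives were another pseudocount, filter, scaling, fit and weighting, a length and GC correction, a replicate block and each library left out. Promoters and gene types came from RefSeq and GENCODE.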

Additional observations from a re-analysis of the deposited data

How the results depend on the processing

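The number of genes past the test ranged from 4782 to 6458 over all settings, beside 6226, and from 5359 to 6444 with 1 library left out. Genes also beyond 0.6 numbered 1017 to 1144 with 1 library left out (359 to 425 higher, 646 to 724 lower), and calls between Ep2 and Ep1 4611 to 5233. Higher genes beyond 0.6 moved from 376 to 632 with a pseudocount of 0.1, to 242 with a filter of 5 FPKM and to 779 with voom on recovered fragments, which gave 1632 in all. With no minimum fold change the counts were 6226 in all, 2798 higher and 3428 lower. The cause was not tested, but a smaller pseudocount by construction widens the fold changes of low genes, and a stricter filter tests fewer genes. Replicate numbers did not pair the samples (correlations of same-numbered deviations from -0.02 to 0.000268, and 0 of 3 samples correlated best with their own number). With a replicate block 6103 genes passed, 1059 beyond 0.6. Leaving out Ep2 replicate 1 lost 410 calls, against 651 to 939 for the other 5 libraries, but it shrank 123 called fold changes by over 1.5 times, against 7 to 77. Krt8, not called, changed sign there (-0.014) and reached 0.089 without Ep2 replicate 3. No called gene changed sign with any 1 library left out.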

Other observations

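Clock genes, sterol synthesis and noncoding RNA were not part of the account above. Of 12 circadian clock genes 7 rose and 1 fell (24.3% and 29.8% of all genes). Their median was 0.38 on the log2 scale. Nr1d2, a repressor of the clock, had 5.896, 4.98 and 5.098 FPKM in Ctrl and 9.11, 10.1 and 11.7 FPKM in Ep2 (log2 fold change 0.83, SE 0.088, adjusted p = 5.54e-05). Per1, a light- and stress-induced clock gene, had 11.98, 12.1 and 9.84 FPKM in Ctrl and 17.1, 17.3 and 19.2 FPKM in Ep2 (log2 fold change 0.62, SE 0.086, adjusted p = 0.00027), and Cry1 was the fall (-0.44). Of 31 cholesterol and lipid synthesis genes 12 fell and 5 rose (3 without Ctrl replicate 1 or 2, and 8 without Ep2 replicate 1). Mvd and Dhcr7, of the mevalonate and late sterol steps, fell (-0.73 and -0.55), while Scd2, a desaturase, rose (0.38). Ift27 and Ift140, of transport in cilia, fell (-0.66 and -0.43), within a list of 22 in which 9 fell and 3 rose.

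By gene type, 31 long noncoding RNAs rose beyond 0.6, 7 fell and 335 did neither. Of protein-coding genes 303 rose, 613 fell and 9157 did neither, and of processed pseudogenes 8 rose, 41 fell and 506 did neither. Over all genes tested 3.27% rose and 5.91% fell beyond 0.6. A processed pseudogene shares most of its sequence with its parent gene, so that fragments may be split between them by the counting, and the counts over pseudogenes are uncertain.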
